A study of Mus musculus with 9 samples.

Results

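Expression of 28 genes of cholesterol synthesis and of the SREBP2 pathway was followed in MIN6 cells, an insulin-producing mouse beta cell line. The genes were taken by symbol from a list of enzymes, regulators and transport proteins, and all 28 were found among the 52408 genes to which the deposited transcripts could be joined. Of the 28, 8 encode enzymes of the mevalonate and isoprenoid steps, 11 encode squalene and sterol enzymes, 3 encode SREBP2 and its regulators, and 6 encode proteins of cholesterol transport, storage and efflux. They were picked by name for their role in the pathway, with no threshold on a measured value, but with earlier results of these data known.

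Total RNA was sequenced from 9 libraries in 3 groups of 3. The control cells were untransfected MIN6 cells, the second group overexpressed Nr4a1, an orphan nuclear receptor, and the third group was given EGCG (epigallocatechin gallate, the main catechin of green tea) upon Nr4a1 overexpression. There were no cells with an empty vector and no cells given EGCG without overexpression, so the transfection and Nr4a1 cannot be told apart, and the effect of EGCG was measured only in overexpressing cells. Neither the EGCG dose and duration nor how the cells were transfected is stated in the sources at hand. All libraries carry the same batch label, and nothing in the labels says that the 3 libraries of a group came from separate cultures, so the p-values measure only the spread between these libraries.

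Cells make cholesterol from acetyl-CoA in the mevalonate pathway, whose isoprenoid products also feed protein prenylation, dolichol and ubiquinone, and squalene is then cyclised and trimmed to cholesterol. The pathway is switched on by SREBP2, a transcription factor held in the endoplasmic reticulum by SCAP and INSIG proteins while sterols are plentiful. When sterols fall, SREBP2 travels to the Golgi, is cut by site-1 and site-2 proteases and enters the nucleus, where it acts on most genes of the pathway. In beta cells the cholesterol content of membranes is known to bear on insulin granules and secretion.

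The Nr4a1 level was 0.63, 0.78 and 0.76 TPM (the share of a transcript among all, corrected for its length) in the control libraries, 128, 123 and 165 TPM under overexpression, and 46.3, 60.9 and 54.5 TPM under overexpression and EGCG. The 3 groups did not overlap, and the EGCG group held less Nr4a1 RNA than the overexpressing group (log2 difference of -1.34 ± 0.125 SE, limma adjusted p = 3.71e-05). The effect of EGCG on the genes below and that of a lower Nr4a1 level therefore cannot be told apart. All 10 beta cell markers reached 1 TPM in every library. Markers of other cell types stayed under 1 TPM in every library for 3 of 4 other islet endocrine genes, 4 of 5 acinar and ductal genes and 6 of 6 genes of stroma, endothelium and leukocytes, and the exceptions were the glucagon gene Gcg (290 to 808 TPM) and the elastase gene Cela1 (3.76 to 5.34 TPM). Gcg moved with the groups, with means of 323, 759 and 304 TPM in control, overexpression and EGCG, and its part in the results was not tested. Beta cell markers differed between the groups as well, and not all in 1 direction. Ins1 had means of 785, 2030 and 724 TPM, Pdx1 of 42.4, 70.6 and 33.7 TPM, and Mafa of 62.9, 38.7 and 33.3 TPM. In bulk RNA, fewer cells of a type and less RNA per cell cannot be told apart. Deposited TPM keep no read depth, so the counting error behind a value is unknown.

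Promoter windows are shown for 4 genes whose levels took different courses: Mvd and Cyp51, which rose with overexpression, Hmgcs1, which did not pass the test, and Insig1, which was lower. Each window runs from 250 bases before to 50 bases after a transcription start, 5′ to 3′ on the strand of the gene, from RefSeq on GRCm38.p6. Capitals mark matches, on either strand, to the core of a sterol regulatory element (TCACNCCAC), an E-box (CACGTG), the NF-Y box (CCAAT) and the Nr4a1 half-site known as NBRE (AAAGGTCA). An NF-Y box on the other strand reads ATTGG. No match overlaps another in these 4 windows. The Mvd window is chr8:122443373-122443672 on the minus strand, the Cyp51 window chr5:4104648-4104947 on the minus strand, the Hmgcs1 window chr13:119690101-119690400 on the plus strand and the Insig1 window chr5:28071162-28071461 on the plus strand.
Mvd: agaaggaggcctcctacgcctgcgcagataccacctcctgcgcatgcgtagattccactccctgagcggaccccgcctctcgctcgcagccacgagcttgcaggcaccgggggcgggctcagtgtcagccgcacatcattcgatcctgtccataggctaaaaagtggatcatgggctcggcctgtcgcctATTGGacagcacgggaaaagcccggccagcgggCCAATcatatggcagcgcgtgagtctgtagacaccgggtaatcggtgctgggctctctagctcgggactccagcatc
Cyp51: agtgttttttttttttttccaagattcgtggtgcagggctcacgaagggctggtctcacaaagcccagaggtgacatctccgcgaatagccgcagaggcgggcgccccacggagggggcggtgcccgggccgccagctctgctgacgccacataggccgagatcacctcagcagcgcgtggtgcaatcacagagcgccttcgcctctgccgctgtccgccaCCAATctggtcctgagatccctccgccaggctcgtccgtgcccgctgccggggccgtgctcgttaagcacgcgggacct
Hmgcs1: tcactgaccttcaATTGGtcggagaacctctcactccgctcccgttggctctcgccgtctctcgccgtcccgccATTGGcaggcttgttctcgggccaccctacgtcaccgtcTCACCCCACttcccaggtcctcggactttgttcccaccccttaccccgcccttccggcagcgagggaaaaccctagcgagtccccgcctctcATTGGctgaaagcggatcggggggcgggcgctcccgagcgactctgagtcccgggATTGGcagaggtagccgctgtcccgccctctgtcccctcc
Insig1: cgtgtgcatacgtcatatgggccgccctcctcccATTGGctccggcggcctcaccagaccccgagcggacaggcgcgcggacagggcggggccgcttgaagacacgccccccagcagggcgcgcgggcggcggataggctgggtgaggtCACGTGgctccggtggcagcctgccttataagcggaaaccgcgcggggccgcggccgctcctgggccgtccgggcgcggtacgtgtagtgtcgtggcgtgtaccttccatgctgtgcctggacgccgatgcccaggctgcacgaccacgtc

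A window was available for 22 of the 28 genes, not for Abcg1, Fdft1, Fdps, Npc1, Sqle and Stard4. The sterol regulatory element core was found in 1 of the 22 genes, Hmgcs1, beginning 137 bases before the start, against 1.44% of the 26994 genes with a window. The E-box was found in 6 of 22 against 8.09%, the NF-Y box in 19 of 22 against 41.0%, and the NBRE in 0 of 22 against 1.70%. Mvd carries 2 NF-Y boxes, Cyp51 carries 1, Hmgcs1 carries 4 and Insig1 carries 1 together with an E-box. These counts describe letters in a window of 300 bases and are not evidence of binding. Only exact matches were counted, so a window without a match may still hold a variant of the element.

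In control cells the 28 genes ranged from a mean of 2.51 TPM for Npc1 to 23.6 TPM for Insig1, with a median of 8.20 TPM. Insig1 (23.6 ± 0.388 TPM, SD, n = 3) and Fdps (23.5 ± 1.69 TPM) led this order and did not differ beyond their spread, and Sqle followed at 18.4 ± 0.44 TPM. Mvd and Npc1, at 3.60 and 2.51 TPM, were among the lowest. Every gene was detected in every library, between 2.31 and 31.9 TPM, and all 28 passed the filter of at least 1 TPM in at least 3 libraries.

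**Figure D1:**
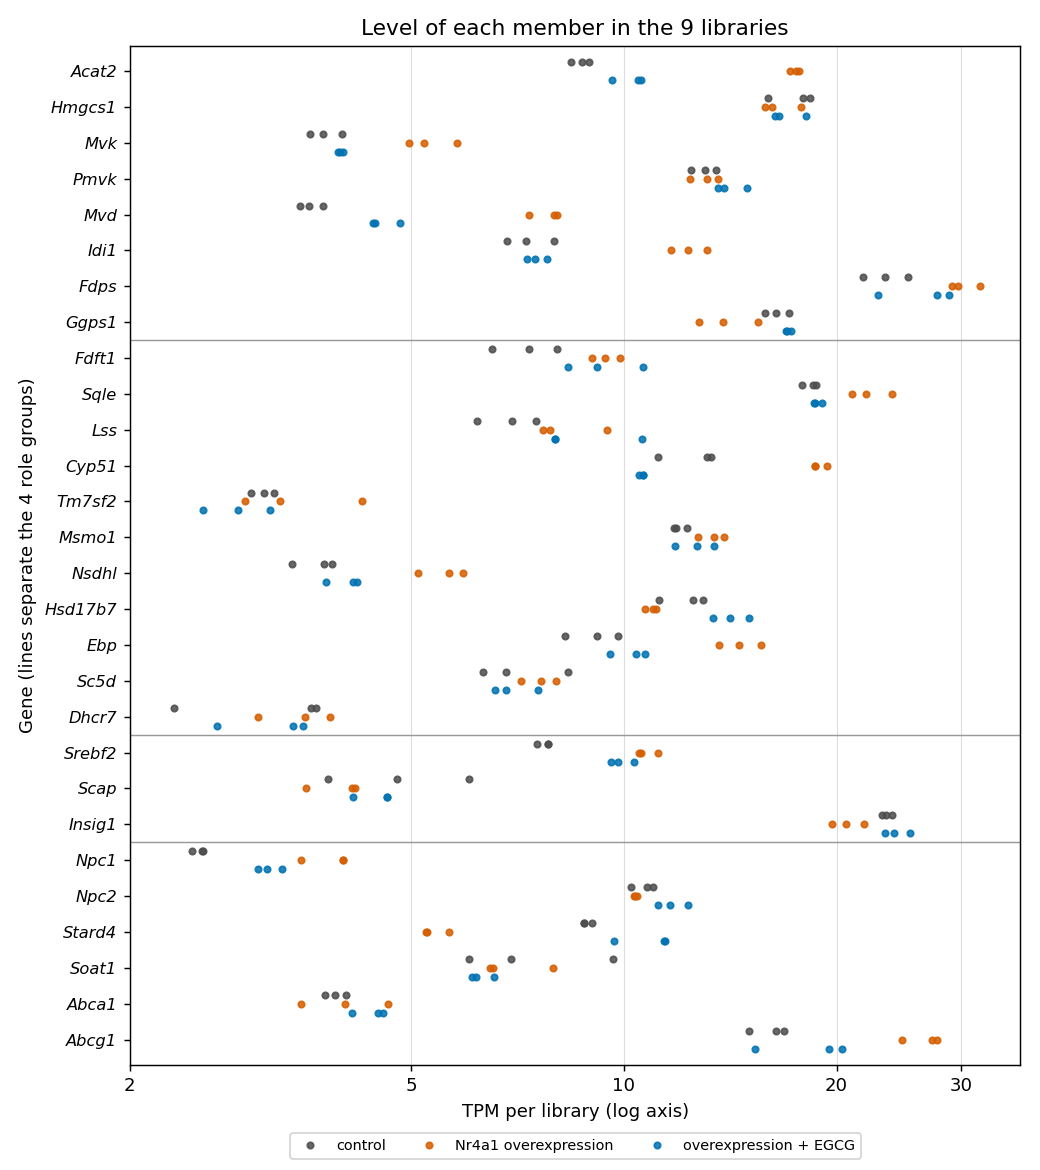
TPM of each of the 28 genes (rows, grouped by role) in each library on a log axis, with 3 control libraries in grey, 3 overexpression libraries in orange and 3 libraries with overexpression and EGCG in blue. Acat2, Mvd, Idi1, Ebp and Abcg1 have their 3 orange points to the right of all others, and Stard4 has them to the left.

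Overexpression was compared with control to see how the pathway stood in cells with high Nr4a1. Of the 28 genes, 13 were higher and 3 were lower (limma, Benjamini-Hochberg adjusted p under 0.05 over 11950 genes). The comparison moved much of the transcriptome: 38.2% of all tested genes were called higher and 21.3% lower, 59.5% in all, against 57.1% of the 28, so the share of the pathway that was called lies near the background. The median log2 difference was 0.19 for the 28 and 0.10 for all tested genes. Under median-ratio scaling the median of all genes shifted by -0.10 and the split of the 28 became 11 higher and 6 lower. With EGCG added to overexpression, 5 of the 28 were higher and 10 lower than with overexpression alone (18.8% and 34.1% of all tested genes, 53% in all, against 53.6% of the 28). The median was -0.11 for the 28 and -0.09 for all tested genes, and scaling to nuclear protein-coding genes, which shifts the median of all genes by 0.13, gave 8 higher and 8 lower and a median of 0.02. Between EGCG with overexpression and control, 6 were higher and 1 lower (11.1% and 7.1% of all tested genes, 18.2% in all, against 25% of the 28). These comparisons share libraries, so their results stand side by side and none counts as support for another. The libraries of both groups did not overlap for 67.9% of the 28 with overexpression against control (65% of all tested genes), 64.3% with EGCG against overexpression (64.7%) and 42.9% with EGCG against control (34.9%).

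**Figure D2:**
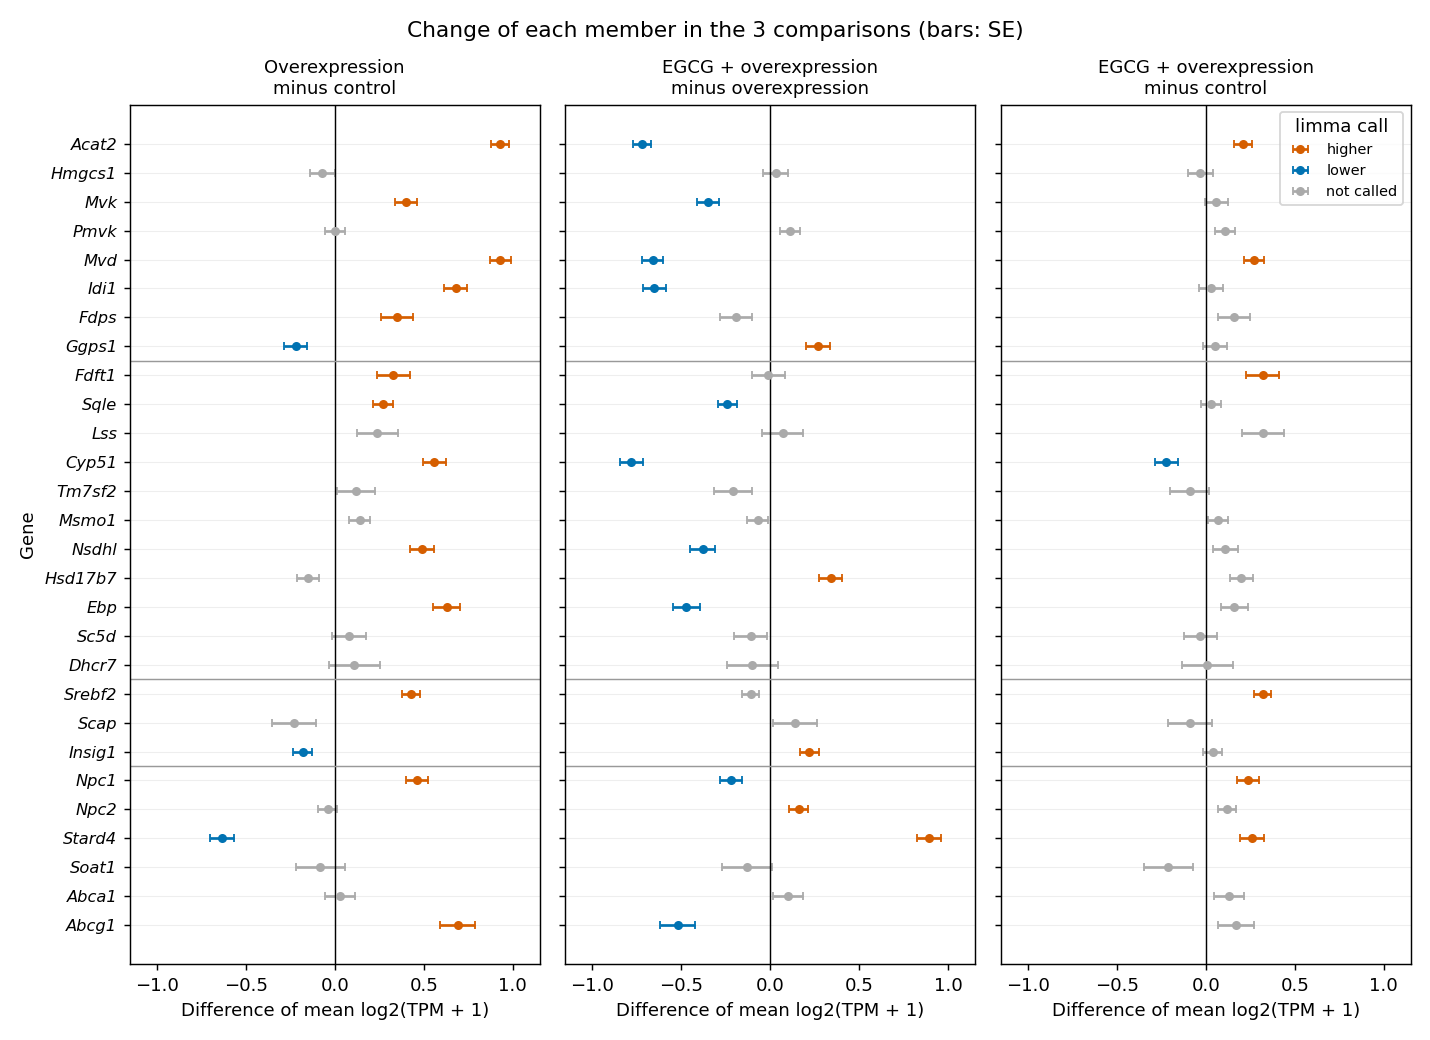
Difference of mean log2(TPM + 1) for each gene in the 3 comparisons, with bars of 1 SE, orange for genes called higher, blue for genes called lower and grey for genes not called by limma. In the first panel Acat2 and Mvd lie farthest right at 0.93 and Stard4 farthest left at -0.63, and in the second panel Stard4 lies at 0.89 and Cyp51 at -0.78.

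Among the 8 enzymes of the mevalonate and isoprenoid steps, 5 rose with overexpression, 1 fell and 2 did not pass the test. The called share was 75%, beside 59.5% of all tested genes (38.2% higher and 21.3% lower). Acat2, the cytosolic thiolase that joins acetyl-CoA into acetoacetyl-CoA, stood at 8.42, 8.93 and 8.73 TPM in control, at 17.7, 17.2 and 17.5 TPM under overexpression and at 10.6, 10.5 and 9.61 TPM with EGCG. The 3 groups did not overlap, with overexpression highest and EGCG between. Acat2 was 2.01-fold higher with overexpression than in control (log2 difference of 0.93 ± 0.0513 SE, limma adjusted p = 1.78e-06), lower with EGCG than with overexpression alone (-0.72 ± 0.0513, adjusted p = 8.87e-06) and higher with EGCG than in control (0.21 ± 0.0513, adjusted p = 0.0257). That last call was lost without control replicate 1 (adjusted p = 0.0806), control replicate 2 (0.0534), EGCG replicate 1 (0.0927) or EGCG replicate 2 (0.0732). Part of Acat2 is shared with Tcp1 (445 bases, 98.7% identical), whose own level was 109, 137 and 113 TPM in control, overexpression and EGCG, and with Acat3 (1477 bases, 97.7%), which stayed under 1 TPM. How reads were shared out among them was not tested.

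Hmgcs1, the synthase that makes HMG-CoA and a textbook SREBP2 target, was at 17.9, 18.4 and 16.0 TPM in control, 17.8, 15.8 and 16.2 TPM under overexpression, and 16.3, 16.6 and 18.1 TPM with EGCG. The groups overlapped, and neither the overexpression difference (-0.07 ± 0.0704 SE, limma adjusted p = 0.446) nor that between EGCG and overexpression (0.03 ± 0.0704, adjusted p = 0.71) passed the test. After median-ratio scaling or quantile normalization Hmgcs1 was called lower with overexpression (-0.18, adjusted p = 0.0243, and -0.21, adjusted p = 0.0108). With EGCG against overexpression it was called higher after quantile normalization (0.18, limma adjusted p = 0.0257) and after scaling to nuclear protein-coding genes (0.18, adjusted p = 0.0401). Among the 22 genes with a promoter window, only Hmgcs1 holds the exact letters searched for as the sterol regulatory element core. Variants of the element were not searched for.

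Mvk, the kinase that phosphorylates mevalonate, was at 3.60, 3.75 and 3.99 TPM in control, 5.21, 5.81 and 4.97 TPM under overexpression and 4.01, 3.96 and 3.94 TPM with EGCG. Overexpression stood above the others in every library, 1.41-fold over control (0.40 ± 0.0632 SE, limma adjusted p = 0.000537), and Mvk was lower with EGCG than with overexpression alone (-0.35 ± 0.0632, adjusted p = 0.00163). Pmvk, which adds the next phosphate, ranged from 12.4 to 15.0 TPM over all libraries and was not called in any comparison. Mvd, which decarboxylates the product to isopentenyl diphosphate, was at 3.58, 3.75 and 3.48 TPM in control, 8.04, 7.96 and 7.34 TPM under overexpression and 4.45, 4.42 and 4.82 TPM with EGCG. Its 3 groups did not overlap, with EGCG between the others. Mvd rose 2.16-fold with overexpression (0.93 ± 0.0576 SE, limma adjusted p = 3e-06), was lower with EGCG than with overexpression alone (-0.66 ± 0.0576, adjusted p = 2.66e-05) and was higher with EGCG than in control (0.27 ± 0.0576, adjusted p = 0.0159).

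Idi1, which isomerises isopentenyl diphosphate, was at 6.84, 7.96 and 7.28 TPM in control, 13.1, 11.7 and 12.3 TPM under overexpression and 7.30, 7.79 and 7.49 TPM with EGCG. Overexpression lay above every other library, 1.68-fold over control (0.68 ± 0.0652 SE, limma adjusted p = 3.07e-05), while the control and EGCG libraries overlapped. The EGCG level was 0.609 times that of overexpression alone (-0.65 ± 0.0652, adjusted p = 5.68e-05). Idi1 shares 684 identical bases with the pseudogene Gm13502, which was listed at 1.49, 1.24 and 0.783 TPM in control, overexpression and EGCG. Fdps, which makes farnesyl diphosphate, was at 23.4, 21.8 and 25.2 TPM in control, 29.7, 29.2 and 31.9 TPM under overexpression and 28.9, 27.8 and 22.9 TPM with EGCG. The overexpression libraries were all higher than the control ones (0.35 ± 0.0896 SE, limma adjusted p = 0.00775), and the difference between EGCG and overexpression did not pass the test (-0.19 ± 0.0896, adjusted p = 0.102). The Fdps rise was not called after median-ratio scaling (0.24, adjusted p = 0.0651) or quantile normalization (0.20, adjusted p = 0.124). Ggps1, which makes the longer geranylgeranyl diphosphate, ran the other way, at 15.8, 17.1 and 16.4 TPM in control, 15.5, 12.8 and 13.8 TPM under overexpression and 17.2, 17.0 and 17.0 TPM with EGCG. Ggps1 was lower with overexpression than in control (-0.22 ± 0.0672 SE, limma adjusted p = 0.019) and higher with EGCG than with overexpression alone (0.27 ± 0.0672, adjusted p = 0.00817). The first call was lost without control replicate 2 (limma adjusted p = 0.0639), overexpression replicate 2 (0.0715) or overexpression replicate 3 (0.0563). Both were lost when only protein-coding transcripts were summed (adjusted p = 0.158 and 0.116). Ggps1 overlaps Arid4b on the opposite strand, at 15.7, 10.6 and 13.5 TPM in control, overexpression and EGCG. How reads of the pair were shared out was not tested.

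**Figure D3:**
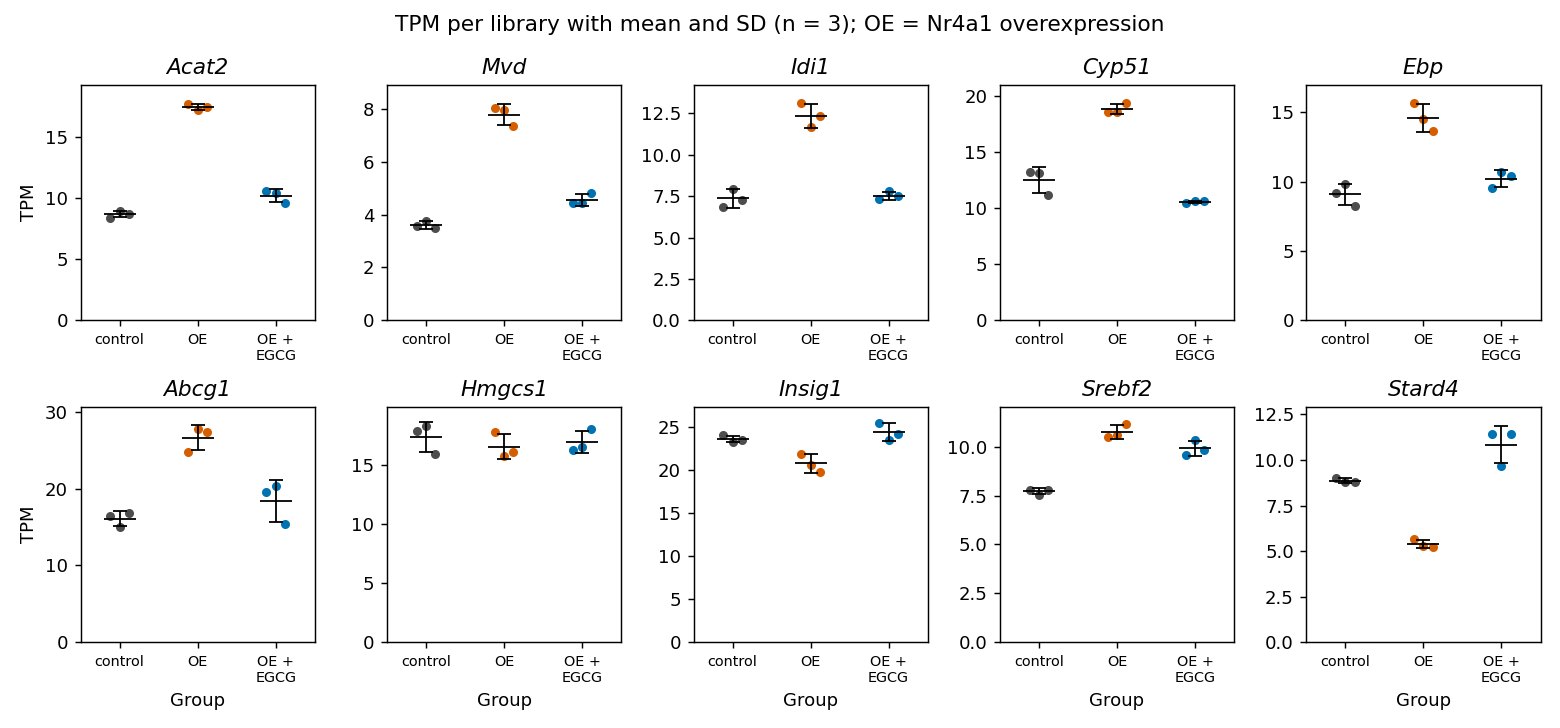
TPM per library (points) with the mean and SD of each group (horizontal mark and bars, n = 3) for 10 genes, where OE stands for Nr4a1 overexpression and each axis starts at 0. Acat2, Mvd, Idi1, Cyp51, Ebp and Abcg1 are highest with overexpression, Hmgcs1 overlaps among the groups, Insig1 and Stard4 are lowest with overexpression, and Srebf2 is above control in both other groups.

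Of the 11 squalene and sterol enzymes, 5 rose with overexpression, 0 fell by limma at the adjusted threshold and 6 were not called. This puts 45.5% called, all higher, beside 59.5% of all tested genes (38.2% higher). At an unadjusted threshold of 0.05 limma placed 1 further gene lower, Hsd17b7, and 1 higher, Msmo1. Fdft1, squalene synthase and the first enzyme committed to sterols, was at 8.05, 6.51 and 7.34 TPM in control, 9.86, 9.02 and 9.40 TPM under overexpression and 10.7, 8.34 and 9.15 TPM with EGCG. Both other groups lay above control in every library, by 0.33 ± 0.0934 SE with overexpression (limma adjusted p = 0.0128) and by 0.32 ± 0.0934 with EGCG (adjusted p = 0.0446). The first call was lost after median-ratio scaling (adjusted p = 0.0728) and quantile normalization (0.0902). The second was lost without control replicate 2 (0.132) or 3 (0.0571), without any of the 3 overexpression libraries (0.0633 to 0.0678), and without EGCG replicate 1 (0.137) or 3 (0.0755). Fdft1 shares 774 bases on the opposite strand with Ctsb, the cathepsin B gene, at 60.2, 95.5 and 77.8 TPM in control, overexpression and EGCG. The sources at hand do not state the strand setting of the counting, so reads of the pair cannot be told apart.

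Sqle, the squalene epoxidase and a rate-limiting enzyme, was at 18.5, 18.7 and 17.9 TPM in control, 23.9, 22.0 and 21 TPM under overexpression and 19.0, 18.7 and 18.6 TPM with EGCG. Overexpression was above all other libraries, by 0.27 ± 0.0549 SE over control (limma adjusted p = 0.00261), and EGCG was below overexpression (-0.24 ± 0.0549, adjusted p = 0.00588). Quantile normalization ended both calls (0.11, adjusted p = 0.0794, and -0.09, adjusted p = 0.162), and scaling to nuclear protein-coding genes ended the second (-0.09, adjusted p = 0.168). Lss, which folds the epoxide into lanosterol, was at 6.94, 6.20 and 7.50 TPM in control, 7.86, 9.46 and 7.69 TPM under overexpression and 10.6, 8 and 7.98 TPM with EGCG. The overexpression libraries did not overlap control, and the difference did not pass the test (0.24 ± 0.117 SE, limma adjusted p = 0.102). Summed over protein-coding transcripts alone it did (0.54, adjusted p = 8.8e-05), as it also did without EGCG replicate 1 (0.24, adjusted p = 0.0465).

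Cyp51, the lanosterol demethylase, was at 13.3, 13.1 and 11.2 TPM in control, 18.6, 18.6 and 19.4 TPM under overexpression and 10.5, 10.7 and 10.7 TPM with EGCG. The 3 groups did not overlap, and EGCG was the lowest. Cyp51 rose 1.51-fold with overexpression (0.56 ± 0.065 SE, limma adjusted p = 9.29e-05) and was lower with EGCG than with overexpression alone (-0.78 ± 0.065, adjusted p = 2.03e-05), the largest drop among the 28. It was the 1 gene called lower with EGCG than in control (-0.22 ± 0.065, adjusted p = 0.0481). That call was lost in 14 of 21 alternatives, 8 of which left out a library (adjusted p of 0.071 to 0.142), and it has the largest adjusted p among the calls in that comparison. Cyp51 lies on the opposite strand to part of Akap9, which was at 23.5, 19.1 and 23.5 TPM in control, overexpression and EGCG.

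Msmo1 and Nsdhl take part in removing the methyl groups at carbon C4 of the sterol. Msmo1 was at 11.8, 11.8 and 12.3 TPM in control, 13.9, 13.4 and 12.7 TPM under overexpression and 12.7, 11.8 and 13.4 TPM with EGCG. Its overexpression libraries were all above control, and the difference narrowly missed the threshold (0.14 ± 0.058 SE, limma adjusted p = 0.0555). It passed in 5 alternatives, with adjusted p of 0.0113 to 0.0483. Nsdhl was at 3.87, 3.39 and 3.77 TPM in control, 5.66, 5.12 and 5.93 TPM under overexpression and 4.14, 4.19 and 3.79 TPM with EGCG. Overexpression was above every other library, 1.51-fold over control (0.49 ± 0.0693 SE, limma adjusted p = 0.000299), and EGCG was below it (-0.38 ± 0.0693, adjusted p = 0.0016).

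Hsd17b7, the ketone reductase of the same C4 step, showed another course, at 12.9, 12.5 and 11.2 TPM in control, 11.1, 11 and 10.7 TPM under overexpression and 14.1, 13.4 and 15.1 TPM with EGCG. EGCG was above all other libraries, 1.30-fold over overexpression alone (0.34 ± 0.0643 SE, limma adjusted p = 0.00186). Summed over protein-coding transcripts alone, the means were 8.67, 7.07 and 8.52 TPM in control, overexpression and EGCG. The EGCG mean was thus not above control for coding transcripts. The noncoding processed transcript ENSMUST00000123230 was at 0.0167, 0.593 and 1.69 TPM. The overexpression difference did not pass the test (-0.15 ± 0.0643, adjusted p = 0.0759). It did under 6 alternatives, among them without control replicate 3 (-0.20, adjusted p = 0.0166) and median-ratio scaling (-0.26, adjusted p = 0.0044).

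Ebp, the isomerase that shifts the ring double bond, was at 9.17, 9.82 and 8.26 TPM in control, 15.7, 14.5 and 13.6 TPM under overexpression and 9.56, 10.7 and 10.4 TPM with EGCG. Overexpression stood above all other libraries, 1.61-fold over control (0.63 ± 0.0756 SE, limma adjusted p = 0.00011), and EGCG was below it (-0.47 ± 0.0756, adjusted p = 0.000775). Sc5d, Dhcr7 and Tm7sf2, which act on sterol double bonds, were not called in any comparison. Sc5d ranged from 6.32 to 8.34 TPM over the 9 libraries, Dhcr7 from 2.31 to 3.84 TPM and Tm7sf2 from 2.54 to 4.26 TPM. The groups of each overlapped between overexpression and control. Tm7sf2 shares 532 bases with Vps51 on the same strand, at 5.70, 9.53 and 8.02 TPM in control, overexpression and EGCG, so its level is uncertain.

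Of SREBP2 and its regulators, 1 rose with overexpression, 1 fell and 1 was not called (66.7% called, beside 59.5% of all tested genes). Srebf2, which encodes SREBP2, was at 7.80, 7.54 and 7.80 TPM in control, 10.5, 10.6 and 11.2 TPM under overexpression and 9.59, 10.3 and 9.82 TPM with EGCG. Both other groups lay above control in every library, by 0.43 ± 0.0495 SE with overexpression (limma adjusted p = 8.75e-05) and by 0.32 ± 0.0495 with EGCG (adjusted p = 0.00544), and both calls held under all 21 alternatives. The difference between EGCG and overexpression did not pass the test (-0.11 ± 0.0495, adjusted p = 0.0989), and it did with library weights (-0.12, adjusted p = 0.0424). Insig1, which holds SCAP in the endoplasmic reticulum and is itself an SREBP2 target, was at 24.0, 23.2 and 23.5 TPM in control, 21.9, 20.6 and 19.7 TPM under overexpression and 25.4, 23.4 and 24.2 TPM with EGCG. The overexpression libraries were the lowest, at 0.88 times control (-0.18 ± 0.0536 SE, limma adjusted p = 0.018), and EGCG was higher than overexpression (0.22 ± 0.0536, adjusted p = 0.00724). The first call was lost without control replicate 1 (adjusted p = 0.053), overexpression replicate 2 (0.0532) or overexpression replicate 3 (0.0749). Scap, the sterol sensor that escorts SREBP2, ranged from 3.55 to 6.04 TPM and was not called in any comparison. The levels are those of RNA, and cleavage of SREBP2 was not measured.

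Of the 6 genes of transport, storage and efflux, 2 rose with overexpression, 1 fell and 3 were not called. That is 50% called, beside 59.5% of all tested genes (38.2% higher and 21.3% lower). Stard4, which carries cholesterol between membranes and is known as a sterol-regulated gene, was at 9.01, 8.78 and 8.79 TPM in control, 5.65, 5.27 and 5.24 TPM under overexpression and 11.4, 9.67 and 11.4 TPM with EGCG. The 3 groups did not overlap, with overexpression lowest and EGCG highest. Stard4 fell with overexpression to 0.608 times control (-0.63 ± 0.0674 SE, limma adjusted p = 5.81e-05) and was 2.01-fold higher with EGCG than with overexpression alone (0.89 ± 0.0674, adjusted p = 1.3e-05). It was also higher with EGCG than in control (0.26 ± 0.0674, adjusted p = 0.0308), a call lost without control replicate 1 (0.0718) or 2 (0.0849) or EGCG replicate 1 (0.108) or 3 (0.0786).

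Abcg1, an efflux transporter of the plasma membrane and endosomes and a known target of the liver X receptors, was at 16.4, 15.1 and 16.9 TPM in control, 24.7, 27.8 and 27.3 TPM under overexpression and 19.5, 20.3 and 15.3 TPM with EGCG. Overexpression was above every other library, 1.65-fold over control (0.69 ± 0.0998 SE, limma adjusted p = 0.000344), and EGCG was below it (-0.52 ± 0.0998, adjusted p = 0.00222). Abca1, the other efflux transporter of the list, ranged from 3.49 to 4.63 TPM and was not called in any comparison. Npc1, which exports cholesterol from lysosomes, was at 2.54, 2.53 and 2.45 TPM in control, 4, 3.49 and 4 TPM under overexpression and 3.04, 3.13 and 3.28 TPM with EGCG. Its 3 groups did not overlap, with EGCG between the others.

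Npc1 rose with overexpression (0.46 ± 0.0618 SE, limma adjusted p = 0.00022), was lower with EGCG than with overexpression (-0.22 ± 0.0618, adjusted p = 0.0154) and was higher with EGCG than in control (0.24 ± 0.0618, adjusted p = 0.029). The second call was lost without overexpression replicate 1 (0.0573) or 3 (0.06) or EGCG replicate 1 (0.0552), under median-ratio scaling (0.0643) and under scaling to nuclear protein-coding genes (0.175). The third was lost without control replicate 1 (0.0699) or 2 (0.0711) or any EGCG library (0.0681 to 0.0717). Summed over protein-coding transcripts alone, the third difference was 0.03 (adjusted p = 0.735). Npc1 shares 323 bases on the opposite strand with Rmc1, at 6.27, 9.44 and 7.44 TPM in control, overexpression and EGCG, and the pair cannot be told apart. Npc2, the soluble lysosomal partner of Npc1, was at 10.8, 10.2 and 11 TPM in control, 10.4, 10.4 and 10.3 TPM under overexpression and 12.3, 11.6 and 11.2 TPM with EGCG. It was higher with EGCG than with overexpression (0.16 ± 0.0516 SE, limma adjusted p = 0.0276), a call lost without any of the 3 overexpression libraries (0.062 to 0.0739) or EGCG replicate 1 (0.103) or 2 (0.0537). The call was also lost with no filter on low values (limma adjusted p = 0.0652) and with the replicate block (0.0555). Summed over protein-coding transcripts alone, the difference was 0.10 (adjusted p = 0.149). Soat1, which esterifies cholesterol for storage, ranged from 6.03 to 9.64 TPM and was not called in any comparison.

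Single transcripts are described without a test, since the split of reads among them is the authors' estimate. The coding transcript ENSMUST00000024829 of Abcg1 was at 12.8, 15.0 and 12.5 TPM in control, overexpression and EGCG, and its coding transcript ENSMUST00000236241 at 2.71, 8.13 and 4.90 TPM. Another coding transcript of Abcg1, ENSMUST00000236391, was listed at 0 in all 3 control libraries and at 2.10, 3.11 and 0.97 TPM with overexpression. For Cyp51 the coding transcript ENSMUST00000001507 was at 10.7, 15.5 and 9.45 TPM, and the retained-intron transcript ENSMUST00000199909 at 0.487, 2.94 and 0.543 TPM. Another retained-intron transcript of Cyp51, ENSMUST00000151539, not drawn in the figure, had a lower mean with overexpression (1.14, 0.293 and 0.43 TPM). Its control and overexpression libraries overlapped. ENSMUST00000048678, a coding transcript of Lss, was at 2.7, 4.56 and 4.03 TPM. Coding transcripts made up 81.1%, 77.7% and 66.6% of the Npc1 level in control, overexpression and EGCG.

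**Figure D4:**
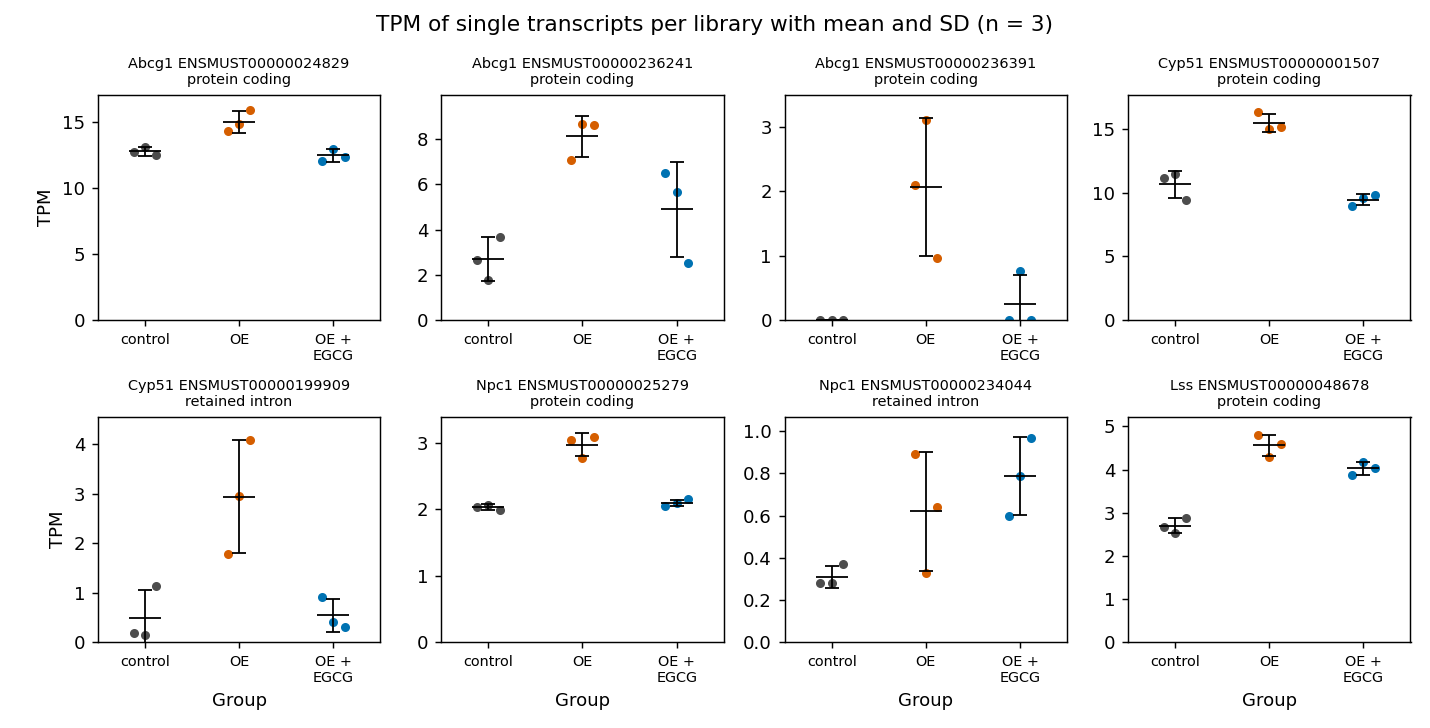
TPM per library (points) with the mean and SD of each group (n = 3; bars that would pass below 0 end at the axis) for 8 transcripts of Abcg1, Cyp51, Npc1 and Lss, where OE stands for Nr4a1 overexpression and the annotated type stands above each panel. The coding transcripts ENSMUST00000236241 (Abcg1), ENSMUST00000001507 (Cyp51) and ENSMUST00000048678 (Lss) are highest with overexpression, and ENSMUST00000236391 (Abcg1) is at 0 in the control libraries.

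A further 45 genes of the pathway were listed by role, and 39 of them could be tested. With overexpression 22 were higher and 6 lower, with EGCG against overexpression 9 were higher and 18 lower, and with EGCG against control 10 were higher and 0 lower by limma. At an unadjusted threshold of 0.05 limma placed 3 lower in the last comparison, Erg28, Rabggtb and Lrp8, named here after their values were seen. The shares called were 71.8%, 69.2% and 25.6%, beside 59.5%, 53% and 18.2% of all tested genes. Split by direction, 38.2% of all tested genes were higher and 21.3% lower with overexpression. With EGCG the figures were 18.8% and 34.1% against overexpression, and 11.1% and 7.1% against control. Among 9 tested genes of SREBP processing and sterol-regulated degradation, 4 rose with overexpression and 3 fell (77.8% called). Mbtps1, the site-1 protease that cuts SREBP2, went from 25.7 ± 1.51 TPM (SD, n = 3) in control to 43.4 ± 0.773 with overexpression and 27.9 ± 0.656 with EGCG (overexpression against control 0.73, limma adjusted p = 6.3e-06). Rnf145, a ubiquitin ligase of the endoplasmic reticulum, took the opposite course, at 16.2 ± 0.72, 8.25 ± 0.321 and 19.0 ± 0.633 TPM (-0.89, adjusted p = 2.54e-06).

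Of 9 further sterol enzymes and binding proteins, 6 rose with overexpression (66.7%, beside 38.2% of all tested genes). Aacs, which activates acetoacetate for lipid synthesis, stood at 6.44 ± 0.423, 16.1 ± 1.26 and 8.68 ± 0.709 TPM in control, overexpression and EGCG (SD, n = 3; overexpression against control 1.2, limma adjusted p = 3.49e-06). Lbr, a nuclear membrane protein with sterol reductase activity, stood at 14.4 ± 1.04, 23.2 ± 0.155 and 15.5 ± 0.779 TPM (0.65, adjusted p = 2.42e-05), and Acly, which supplies cytosolic acetyl-CoA, at 140 ± 6.79, 196 ± 10.5 and 166 ± 3.92 TPM (0.48, adjusted p = 0.000141). Of 9 genes of the isoprenoid branch, 5 rose (55.6%, beside the same 38.2%). Fnta, the shared subunit of both farnesyl and geranylgeranyl transferases, stood at 16.3 ± 1.25, 25 ± 1.99 and 17.8 ± 1.05 TPM (0.59, adjusted p = 0.000188), Dhdds of dolichol synthesis at 4.93 ± 0.397, 7.64 ± 0.287 and 6.11 ± 0.59 TPM (0.54, adjusted p = 0.000246), and Rabggtb, a subunit of the Rab prenyltransferase, at 24.5 ± 1.64, 28.3 ± 1.53 and 21.7 ± 0.945 TPM (0.20, adjusted p = 0.0236).

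Of 12 tested genes of uptake, transport, storage and hydroxylation, 7 rose with overexpression and 3 fell. That is 83.3% called, beside 59.5% of all tested genes (38.2% higher and 21.3% lower). Lipa, the lysosomal acid lipase that frees cholesterol from its esters, stood at 8.82 ± 0.115, 22.4 ± 0.897 and 10.9 ± 0.269 TPM in control, overexpression and EGCG (SD, n = 3), a 2.54-fold rise (1.25, limma adjusted p = 2.67e-07). Nceh1, a neutral cholesterol ester hydrolase, stood at 6.11 ± 0.212, 9.47 ± 0.811 and 7.02 ± 0.49 TPM (0.55, adjusted p = 0.000175). Vldlr, a lipoprotein receptor, was lower with overexpression, at 25.1 ± 2.23, 15.7 ± 0.375 and 23.5 ± 0.7 TPM (-0.64, adjusted p = 4.44e-05). For each gene named with its levels in these lists other than Rnf145 and Vldlr, the level with EGCG was below that with overexpression alone, and for those 2 it was above (limma adjusted p under 0.05 in each).

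The control libraries stood apart in 1 further measure. In control, the summed level of 1478 olfactory, vomeronasal and trace amine receptor genes was 108, 91.7 and 50 TPM in the 3 libraries, while it was 4.22 to 4.71 TPM under overexpression and 7.85 to 11.8 TPM with EGCG. This is on average at most 0.0728 TPM per gene, against a lowest value of 2.31 TPM among the 28 genes. A mean does not bound the signal at a single gene. In the 3 control libraries Scap was at 6.04, 4.78 and 3.82 TPM and Soat1 at 9.64, 6.93 and 6.03 TPM, the same order. The retained-intron transcript ENSMUST00000196424 of Scap was at 2.4, 1.71 and 0 TPM there. Both genes were picked after their values were seen, not all of the 28 followed this order, and a link was not tested. With the mean of the receptor genes subtracted from each library, the calls among the 28 were 14 higher and 3 lower with overexpression. They were 5 and 10 with EGCG against overexpression, and 6 and 1 with EGCG against control. The amount subtracted was small beside the level of each of the 28, so only calls near the threshold could change. The recount therefore says little about that signal, whose bearing on these genes was not tested.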

How the data were processed

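Total RNA of 9 MIN6 libraries was measured by RNA-seq, with groups and replicate numbers taken from the sample titles. The deposited values are TPM per Ensembl transcript, which the authors made with bcl2fastq 2.20, cutadapt 2.8, STAR 2.7.1a and RSEM 1.2.31 on GRCm39, per the submitters' processing notes. Per the labels' protocols the library kit was stranded. Neither the annotation release nor the strand setting is stated in the sources at hand. TPM is relative to the library's sum, so abundant RNAs lower all others, and depth is unknown.

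Of 142435 transcript identifiers, 138346 (97.13%) matched the GENCODE M21 annotation of the older build GRCm38, used for names only. The unmatched ones held 17.99% to 20.57% of the TPM of a library. Transcript values were added up to genes. The 11950 genes that reached 1 TPM in 3 or more libraries were tested with limma 3.58.1 in R 4.3.3 on log2(TPM + 1), with a mean-variance trend and all 9 libraries in 1 fit, two-sided, with Benjamini-Hochberg adjustment over all tested genes. Fold changes of log2 values are on the log2(TPM + 1) scale and understate changes of low genes. The fit was tested on simulated data. Libraries within a group correlated at 0.972 to 0.9863, and no 2 were alike enough to be 1 library. Shared sequence was searched with BLAST 2.17.0 at 95% identity over 300 bases.

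The 28 genes and the other lists were chosen with earlier results of these data known. Genes called in any comparison are given in every library, the others by range, and up to 3 called genes of each further list by smallest adjusted p. Alternatives covered the pseudocount, filter, scaling, samples, trend, weights, block, coding transcripts and leaving out each library. The subtraction of chemoreceptor signal was chosen after seeing the data. Some genes of the pathway are not reported here.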

Additional observations from a re-analysis of the deposited data

How the results depend on the processing

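Each result was recomputed under 21 alternatives, and 0 called values changed sign. With overexpression against control, 11 of the 16 called genes passed the limma test in every alternative (10 higher and Stard4 lower). With EGCG against overexpression it was 11 of 15 (3 higher, 8 lower), and with EGCG against control 2 of 7 (Mvd and Srebf2). The number lower with overexpression, 3, became 6 under median-ratio scaling, 7 under quantile normalization, 5 with library weights and 1 to 5 leaving out a library (5 without control replicate 3, 1 without overexpression replicate 2 or 3). The number higher with EGCG against overexpression, 5, became 8 after scaling to nuclear protein-coding genes and 3 with protein-coding transcripts only. The number higher with EGCG against control, 6, became 10 after scaling to nuclear protein-coding genes, 2 with the 2 groups fitted alone and 2 to 5 leaving out a library (3 without control replicate 1, 2 without control replicate 2 or EGCG replicate 1). The number lower there, 1 (Cyp51), became 0 by limma with no filter, scaling to nuclear protein-coding genes, the 2 groups alone, no mean-variance trend, and coding transcripts only, and 0 to 1 leaving out a library. Of the values that did not pass the test, 8 of 12 changed sign in some alternative with overexpression against control, 8 of 13 with EGCG against overexpression and 7 of 21 with EGCG against control, and 7, 5 and 8 were called in some alternative. Of these, 2 were called with the other sign: Pmvk with overexpression under quantile normalization (-0.13, limma adjusted p = 0.0417) and Scap with EGCG against control with coding transcripts only (0.23, adjusted p = 0.029). Srebf2 with EGCG against overexpression was among those that changed sign (0.01 under quantile normalization, 0.03 scaled to nuclear protein-coding genes, 0.04 with coding transcripts only), as was Hmgcs1 there (-0.01 without EGCG replicate 3, within a range of -0.01 to 0.08 leaving out a library). The cause was not tested in these cases.

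The correlations of same-numbered libraries' deviations from the group means were -0.02 to 0.21, and not all were over 0.1. In 11 of 18 comparisons, where 6 would be met with no relation, a library correlated best with its own number. The labels give no shared origin for a number, so the libraries were not treated as paired. With the replicate block 13 genes were higher and 3 lower with overexpression, 4 and 10 with EGCG against overexpression, and 3 and 0 by limma with EGCG against control. Without read depth, counting error could not be separated from the spread between libraries.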

Other observations

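Other regulators of sterol genes and a lipoprotein receptor gene, named here after their values were seen, also differed. Nr1h2, which encodes the liver X receptor beta, was at 12.8 ± 1.53 TPM (SD, n = 3) in control, 8.39 ± 0.455 with overexpression and 14.6 ± 0.618 with EGCG. Nr1h2 was lower with overexpression than in control (-0.55 ± 0.0813 SE, limma adjusted p = 0.000372). Srebf1, which encodes the related SREBP1, was at 23.0 ± 1.62, 18.5 ± 0.68 and 26.1 ± 2.36 TPM and was lower with overexpression (-0.30 ± 0.0749, adjusted p = 0.00746), whereas Srebf2 was higher. Insig2, the second INSIG gene, was at 10.9 ± 0.165, 12 ± 0.967 and 14.7 ± 2.02 TPM and was highest with EGCG (0.40 ± 0.0926 against control, adjusted p = 0.022). Lrp8, a lipoprotein receptor, rose from 7.32 ± 1.38 to 12 ± 0.713 TPM with overexpression (0.66 ± 0.124, adjusted p = 0.00158) and was at 5.61 ± 0.675 TPM with EGCG (-0.98 ± 0.124 against overexpression, adjusted p = 0.000206).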
